A study of Mus musculus with 24 samples.

Results

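miR-144 and miR-451 (mmu-miR-144 and mmu-miR-451 in the count table) are a pair of red blood cell microRNAs. They were followed here in the plasma of 24 male C57BL/6J mice that carried no engineered allele. The mice were 20 weeks old by the labels, while the study's methods give a range of ages ending there. The pair is every mouse miRNA row of the nCounter count table with either name, 2 of 566 mouse miRNA probes. The mice fell into 3 groups of 8: EPFR (particles rich in environmentally persistent free radicals), EPFR lo (particles of the same mass concentration with a lower radical content per gram) and filtered air. Exposure was to the whole body for 4 h a day on 5 days, at 250 µg/m3 by the labels, while the study's methods state a somewhat higher mass concentration. RNA described as exosomal was taken from 200 µL of plasma of each mouse, no mice were pooled, and 10 ng of it was counted on a NanoString nCounter cartridge, in which each probe that finds its target adds 1 count. The methods state that hemolyzed plasma was left out and that samples were run in several batches, without saying which mouse was in which. Mice were exposed together in a whole-body chamber, so p-values measure the spread between these mice and not between repeats of the exposure.

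Red blood cell precursors transcribe both miRNAs as 1 primary transcript under the transcription factor GATA1, and both stay in the mature, enucleated cell. miR-144 is cut by Drosha and Dicer in the usual way, and in erythroid cells it lowers factors of the antioxidant response. miR-451 is the best known exception among miRNAs of vertebrates: its hairpin is too short for Dicer and is cut by the slicer Ago2, and in mouse it protects red cells from oxidant stress through its target Ywhaz. Because red cells hold so much of it, miR-451 in plasma is widely read against miR-23a, which red cells hold little of, to judge how much red cell content a sample carries.

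The mature sequences are printed because the pair shares a transcript but not a seed, the stretch at bases 2 to 8 (in capitals) with which a miRNA finds its targets. They come from RefSeq (GRCm38.p6), where both members and the opposite arm of miR-144 had an entry.
mmu-miR-144-3p: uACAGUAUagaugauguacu
mmu-miR-144-5p: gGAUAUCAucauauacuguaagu
mmu-miR-451a: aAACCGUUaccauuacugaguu
None of these seeds occurred in another of the 1679 mature mouse miRNA names in the table, so neither member has a seed family in that table. The nearest sequence was mmu-miR-101a-3p, which shares bases 2 to 7 with mmu-miR-144-3p. The miR-101a probe stayed at background, with a mean raw count of 11.1 over the 24 mice. The count table names its probe miR-144 with no arm. The plain name is the older one of the 3p arm, but the probe's own sequence was not in the sources used here.

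The hairpin of Mir144 lies at chr11:78073005-78073070 on the plus strand (GRCm38.p6, 66 bases) and that of Mir451a at chr11:78073170-78073241 on the same strand (72 bases), with 99 bases between them. Of mmu-miR-144-3p, the bases are 43 to 62 of its hairpin, and mmu-miR-451a takes bases 17 to 38 of its own. The mature miR-451 thus extends past the midpoint of its hairpin. The annotation places only miRNA genes within the 237 bases that hold both hairpins. The nearest protein-coding genes are Eral1, 135 bases beyond Mir451a, and Flot2, 12571 bases on the other side. Mir451b is annotated on the minus strand over the hairpin of Mir451a, and no probe for it was analysed here.

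miR-451 was the most abundant miRNA in plasma in 24 of 24 mice, with 27.5% of all mouse miRNA counts and a mean raw count of 3921. miR-144 was the sixth by mean raw count, at 116 counts and 0.812% of all counts. Its counts were therefore much nearer the background, set at the mean plus 2 SD of the negative-control probes (34.1 counts). That limit was passed by 41 of 566 miRNA, both members among them, and 525 lay at or under it. Against the limit of its own mouse, miR-144 was above background in 8 of 8 EPFR mice, 7 of 8 EPFR lo mice and 5 of 8 filtered air mice. miR-451 was above it in all 24 mice. Counts of mouse miRNA came to 8418 to 30483 per mouse, and to 6553 to 16985 without the pair. The share of miR-144 ran up to 1.74% in EPFR mouse 4 (95% Wilson interval 1.52 to 1.99%). The lowest share, 0.150% in filtered air mouse 4, came from 14 counts, under that mouse's own limit of 41.1, and so describes background.

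In the EPFR mice, miR-144 had 50, 64, 133, 208, 87, 180, 123 and 197 raw counts in mice 1 to 8 (lowest 50, median 128, highest 208). In the EPFR lo mice it had 57, 79, 44, 161, 166, 264, 160 and 226 (lowest 44, median 160.5, highest 264). In the filtered air mice it had 56, 24, 35, 14, 53, 280, 50 and 69 (lowest 14, median 51.5, highest 280). The filtered air mice were thus the low group apart from mouse 6, whose count was above that of every other mouse of the series. The 3 groups overlapped, and EPFR lo mice 1 to 3 held fewer counts than any of the other EPFR lo mice.

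miR-451 had 1815, 1259, 8819, 3381, 2053, 4038, 6127 and 4003 raw counts in EPFR mice 1 to 8 (lowest 1259, median 3692, highest 8819). In EPFR lo mice it had 1997, 1791, 2532, 4792, 4510, 7639, 4390 and 13272 (lowest 1791, median 4450, highest 13272). In filtered air mice it had 1209, 1419, 1194, 1346, 2518, 5822, 1733 and 6445 (lowest 1194, median 1576, highest 6445). Among filtered air mice, 6 were low and close together, and mice 6 and 8 reached the upper range of the particle groups. Of the 12 mice with the highest counts of all 24, 5 were EPFR, 5 EPFR lo and 2 filtered air for miR-451, and for miR-144 they were 6 EPFR, 5 EPFR lo and 1 filtered air.

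**Figure D1:**
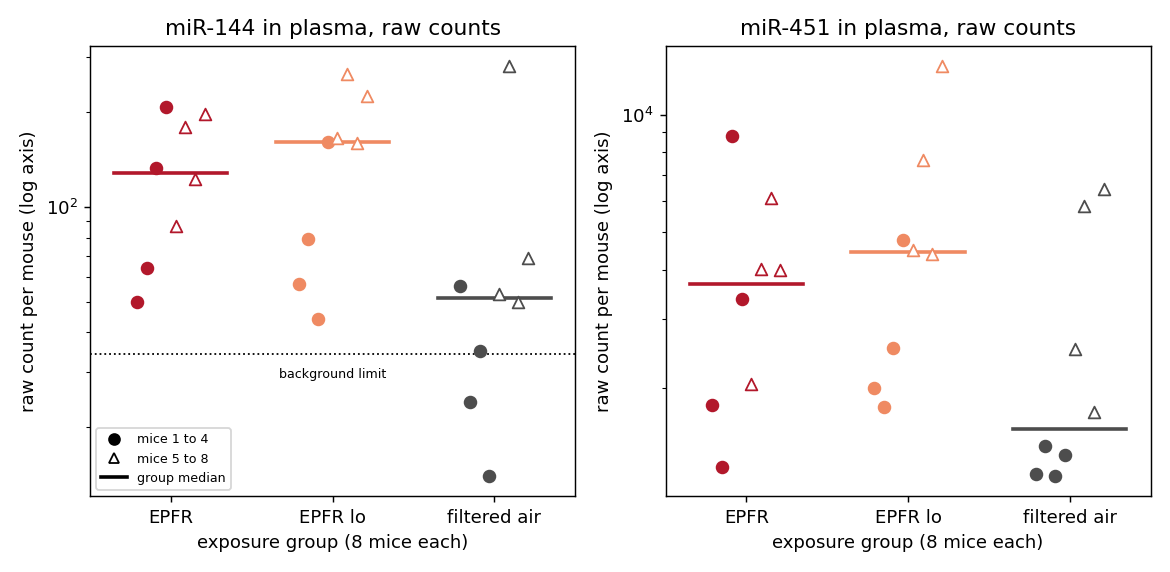
Raw counts of miR-144 (left) and miR-451 (right) per mouse on log axes, by exposure group, with filled circles for mice 1 to 4, open triangles for mice 5 to 8 and a line at each group's median. The medians of miR-144 are 128 in EPFR, 160.5 in EPFR lo and 51.5 in filtered air mice, and 1 filtered air mouse lies at 280.

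After scaling each mouse to its positive controls and housekeeping probes, miR-144 averaged 160 ± 103 counts in EPFR mice and 69.9 ± 81.1 in filtered air mice (SD, n = 8 each). Fitted across all 566 miRNA, miR-144 was 2.27-fold higher in EPFR (log2 fold change 1.18, SE 0.40) with an unadjusted p of 0.00316 and an adjusted p of 0.236 (edgeR quasi-likelihood F test, Benjamini-Hochberg), so it did not pass the threshold of 0.05. In 7 of 8 EPFR mice its scaled count exceeded the median of filtered air mice. By unadjusted p it stood 7th of 566 miRNA. Tested as a single value over mice, its log2 scaled count differed by 1.35 (SE 0.57, exact permutation p = 0.0373, two-sided, Benjamini-Hochberg over 3 comparisons 0.0559).

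miR-451 averaged 4695 ± 3235 scaled counts in EPFR mice and 2783 ± 2168 in filtered air mice (SD, n = 8 each). Its log2 fold change was 0.75 (SE 0.72, edgeR adjusted p = 0.991), a 1.69-fold difference, and 5 of 8 EPFR mice had a scaled count above the filtered air median. As a single value its log2 scaled count differed by 0.74 (SE 0.59, exact permutation p = 0.223, 0.335 over 3 comparisons). The SE of miR-451 in this fit was larger than that of miR-144, and an interval of 2 SE ran from -0.68 to 2.19 in log2. The spread between mice was alike, with a within-group SD in log2 of 1.02 for miR-451 and 1.03 for miR-144. In a fit of only the miRNA above background the SEs were 0.50 and 0.48. There miR-144 had an unadjusted p of 0.0183 and an adjusted p of 0.0901 (edgeR). Neither member was called, against 4 of 566 miRNA (0.707%) called in either direction, all of them higher in EPFR. At an unadjusted p under 0.05 the miRNA came to 29 of 566 (5.12%, of which 3.89% higher and 1.24% lower), miR-144 among the higher ones. Of the 41 above background alone, 16 (39.0%) had an unadjusted p under 0.05 in this fit, and all 16 were higher in EPFR. Of the 41 miRNA above background, 32 had a positive log2 fold change, with a median of 0.59. miR-144 was eighth and miR-451 15th of these 41 by log2 fold change.

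Set against filtered air mice, the EPFR lo mice also had higher mean levels of the 2 members. Neither passed the fit across all miRNA, while miR-144 passed the exact test of its single value. miR-144 averaged 151 ± 67.3 scaled counts in EPFR lo mice and 69.9 ± 81.1 in filtered air mice (SD, n = 8 each), with a log2 fold change of 1.11 (SE 0.40, edgeR adjusted p = 0.321), or 2.15-fold. miR-451 averaged 4940 ± 2038 in EPFR lo mice and 2783 ± 2168 in filtered air mice, with a log2 fold change of 0.83 (SE 0.72, edgeR adjusted p = 1.000). For both members, 8 of 8 EPFR lo mice had scaled counts above the filtered air median. In raw counts it was 7 of 8 for miR-144 and 8 of 8 for miR-451. EPFR lo mice 1, 2 and 4 and filtered air mouse 2 had all 4 housekeeping probes at background. They share the largest scaling factor of the 24 mice, 1.66, which raises the EPFR lo group more. Without these 4 mice the log2 fold change of miR-144 was 0.95 (SE 0.49, edgeR adjusted p = 0.986). As single values over mice, the log2 scaled count of miR-144 differed by 1.45 (SE 0.49, exact permutation p = 0.0127, 0.0382 over 3 comparisons) and that of miR-451 by 1.10 (SE 0.45, exact permutation p = 0.0306, 0.0918 over 3 comparisons). On unscaled log2 counts miR-144 differed by 1.29 (exact permutation p = 0.0371, 0.0557 over 3 comparisons), so after adjustment the pass depends on the scaling. On the same counts miR-451 differed by 0.95 (exact permutation p = 0.0751). Called in this comparison were 4 of 566 miRNA (0.707%), and 26 (4.59%) had an unadjusted p under 0.05, 4.42% of all in the higher direction, miR-144 among them. The median log2 fold change of the 41 miRNA above background was 0.60, and 40 of them were positive. The way these 41 were chosen can favor the particle group here as well.

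The particle groups did not differ detectably from each other in either member. The log2 fold change of EPFR against EPFR lo was 0.08 for miR-144 (SE 0.39, edgeR adjusted p = 0.978), with 2 SE reaching from -0.71 to 0.86, and as a single value -0.10 (SE 0.48, exact permutation p = 0.839). For miR-451 it was -0.07 (SE 0.71, edgeR adjusted p = 0.993), with 2 SE reaching from -1.50 to 1.35, and as a single value -0.36 (SE 0.48, exact permutation p = 0.461). Both intervals hold differences in either direction, so likeness of the particle groups was not shown. Of 566 miRNA, 1 was called here (0.177%), and it was neither member, and 14 (2.47%) had an unadjusted p under 0.05, 1.94% of all in the lower direction, again without either member. The 2 comparisons with filtered air share their control mice, and their values for a member are therefore not independent of each other.

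The edgeR call on miR-144 turned on filtered air mouse 6. Without it, the log2 fold change of miR-144 was 1.92 in EPFR (edgeR adjusted p = 0.000459) and 1.85 in EPFR lo (edgeR adjusted p = 0.0014), and the miRNA called numbered 9 and 10. Without any other single mouse miR-144 did not pass the threshold, and its log2 fold change was lowest without EPFR mouse 4 (0.95 in EPFR). miR-451 was not called after leaving out any mouse, and its log2 fold change in EPFR ranged from 0.52 without EPFR mouse 3 to 1.07 without filtered air mouse 8.

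**Figure D2:**
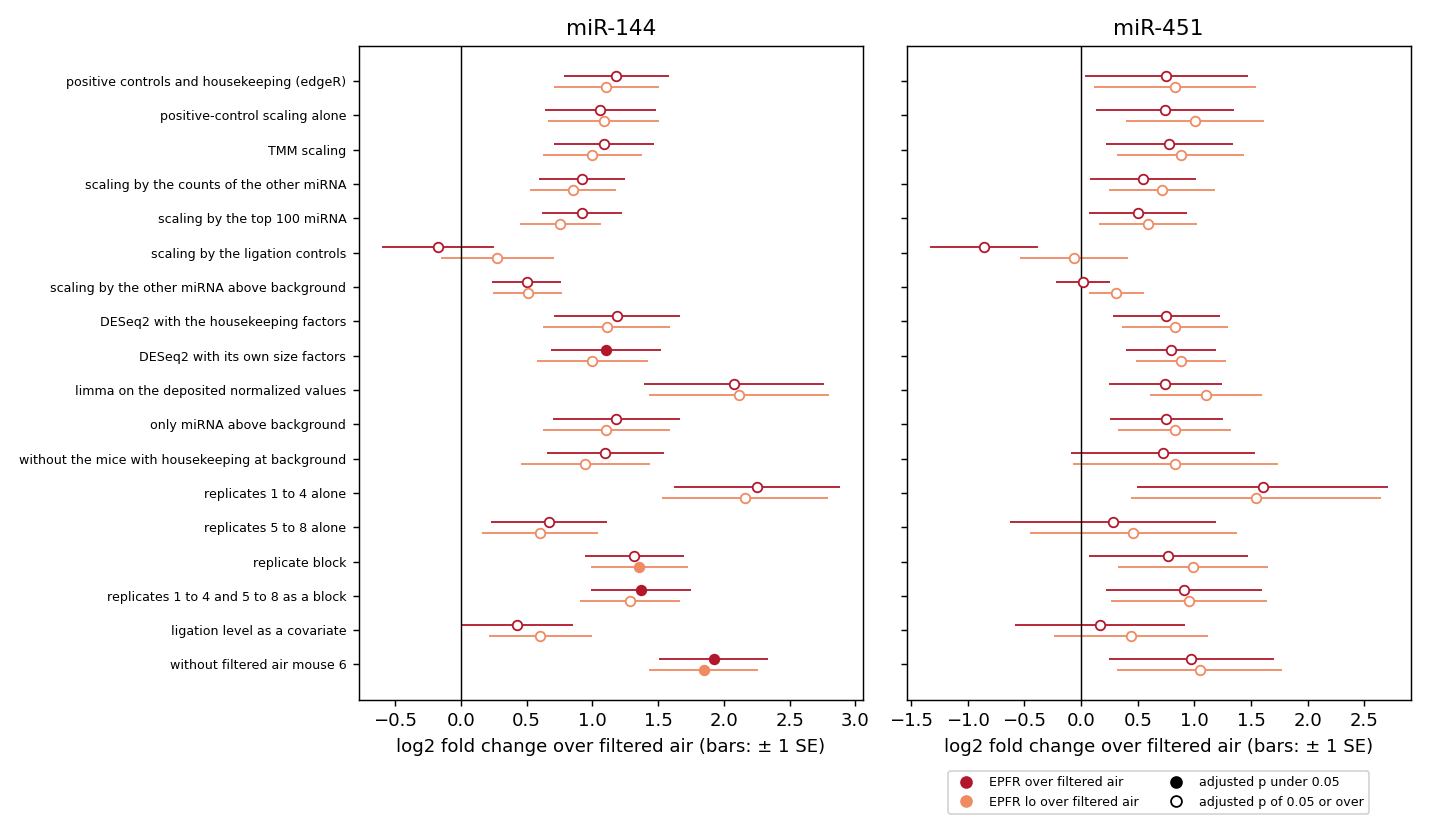
Log2 fold change over filtered air of miR-144 (left) and miR-451 (right) for EPFR (dark red) and EPFR lo (orange) by scaling, tool and set of mice. Bars are 1 SE, and points are filled where the adjusted p is under 0.05. Of the fits that leave out 1 mouse, only that without filtered air mouse 6 is shown. In the others miR-144 did not pass. The uppermost setting is the reported fit, at 1.18 and 1.11 for miR-144, and scaling by the ligation controls is the setting with points under 0, at -0.17 for miR-144 and at -0.86 and -0.06 for miR-451.

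Mice 1 to 4 and mice 5 to 8 of the groups differed in level as well. Over all groups, mice 5 to 8 had log2 raw counts higher by 1.15 for miR-144 and by 1.08 for miR-451 than mice 1 to 4 (n = 12 each). The control probes were higher in mice 5 to 8 too. In log2 the ligation controls differed by 1.13, the positive controls by 0.26 and the negative controls by 0.25. Housekeeping probes differed by 0.34 and the counts of mouse miRNA without the pair by 0.53. The difference in level was thus not particular to the pair. The log2 fold change of miR-144 in EPFR was 2.25 among mice 1 to 4 and 0.67 among mice 5 to 8, and in EPFR lo it was 2.16 and 0.60 (edgeR, adjusted p from 0.104 to 0.997 in these 4 fits). With this division as a block, miR-144 passed the test in EPFR (log2 fold change 1.37, edgeR adjusted p = 0.0321) and just missed it in EPFR lo (1.29, edgeR adjusted p = 0.0526). Whether the division matches a run of the instrument was not tested, since no source gives the runs.

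The ligation controls moved with miR-144. Their relation with miRNA other than the pair was not computed, so a trait particular to the pair was not shown. The ligation controls are synthetic RNAs that report how well tags were joined to the RNA of a sample before counting. Their geometric mean was 2528 to 7251 counts in EPFR mice (median 5442), 1018 to 6346 in EPFR lo mice (median 4457) and 353 to 3988 in filtered air mice (median 2172). In log2 they differed by 1.38 in EPFR against filtered air (SE 0.46, exact permutation p = 0.00373, two-sided, n = 8 each, Benjamini-Hochberg over 3 comparisons 0.0112), and all 8 EPFR mice exceeded the median of filtered air mice. In EPFR lo against filtered air it was 0.91 (SE 0.54, exact permutation p = 0.112).

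Over the 24 mice, the raw count of miR-144 followed the ligation controls with Pearson's r = 0.82 (permutation p = 1e-05, the smallest that 100000 permutations can give) and Spearman's rho = 0.76 (permutation p = 5e-05), both on log2 scale. Without the 2 mice farthest from the median ligation level r was 0.71. Within the groups r was 0.53 in EPFR, 0.88 in EPFR lo and 0.81 in filtered air (exact permutation p = 0.182, 0.00491 and 0.0238, n = 8 each), and rho was 0.33, 0.69 and 0.90 in the same order (exact permutation p = 0.428, 0.0694 and 0.00456). In mice 1 to 4 r was 0.84 and rho 0.87, and in mice 5 to 8 r was 0.60 and rho 0.31 (permutation p of rho 0.331). For miR-451 the relation had r = 0.59 (permutation p = 0.00191) and rho = 0.62 (permutation p = 0.00165), 0.53 without the 2 farthest mice, and between 0.46 and 0.62 within the groups, where rho was 0.36 to 0.60 and no p passed 0.05. In mice 1 to 4 its r was 0.46 and rho 0.41, and in mice 5 to 8 r was 0.37 and rho -0.04 (permutation p of rho 0.903), so this relation did not pass the test within either set of mice. Adjusted over the 3 relations computed with the ligation controls (the third was the ratio of the pair, r = -0.47, rho = -0.33), the p of r was 3e-05 for miR-144, 0.002865 for miR-451 and 0.0189 for the ratio. The rho of the ratio did not pass (permutation p = 0.121, also after adjustment), and its r was -0.21 without the 2 farthest mice, so that relation rests on those mice. In mice 1 to 4 it was -0.65 and in mice 5 to 8 it was -0.32.

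When the fit held the ligation controls as a covariate, miR-144 had a log2 fold change of 0.43 in EPFR (SE 0.42, edgeR adjusted p = 0.999) and 0.61 in EPFR lo (SE 0.39, edgeR adjusted p = 0.998). Scaling by the ligation controls turned the direction in EPFR, to -0.17 for miR-144 and -0.86 for miR-451. It lowered the median of all 566 miRNA to -1.72. Since 525 of the 566 lay at or under background, that median describes mostly background and gives no standard for the members. The part of ligation in the differences between groups was not tested.

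**Figure D3:**
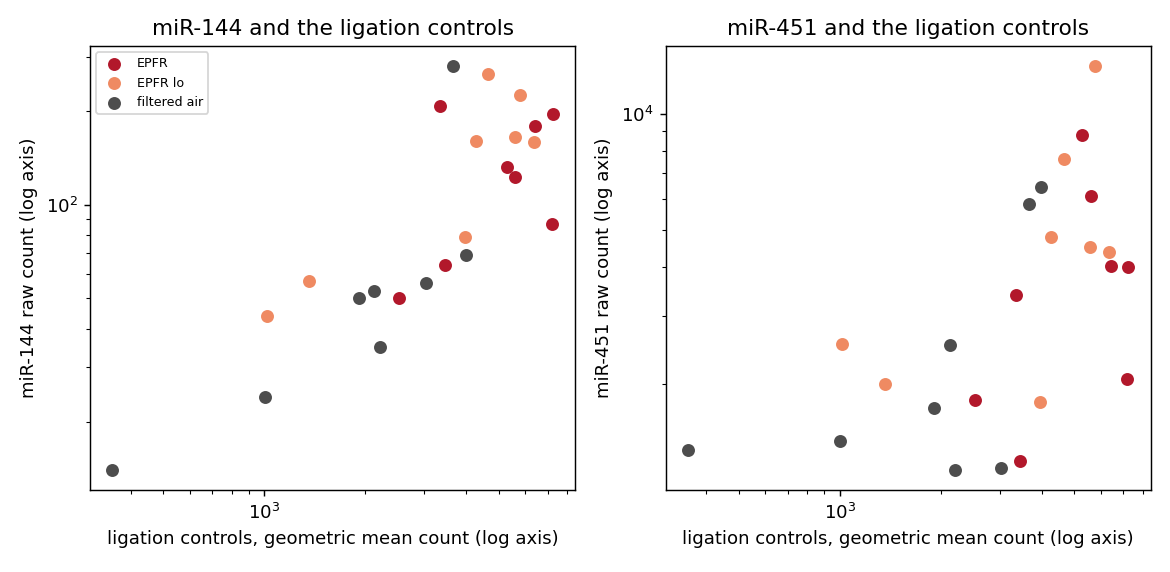
Raw counts of miR-144 (left) and miR-451 (right) against the geometric mean of the 3 ligation controls in each of the 24 mice, both axes logarithmic, colored by group. The correlation is r = 0.82 for miR-144 and r = 0.59 for miR-451, a difference that was not tested, and filtered air mouse 4 has the lowest ligation level, 353.

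Measures within a mouse do not depend on any scaling factor. miR-451 made up 14.8 to 39.8% of mouse miRNA counts in EPFR mice (median 25.7%), 16.9 to 43.5% in EPFR lo mice (median 27.5%) and 12.1 to 34.9% in filtered air mice (median 15.4%). Its share averaged 26.0 ± 9.0% in EPFR, 28.5 ± 8.3% in EPFR lo and 19.4 ± 8.7% in filtered air (SD, n = 8 each). The difference from filtered air was 6.65 percentage points in EPFR (SE 4.43, exact permutation p = 0.154, two-sided) and 9.07 in EPFR lo (SE 4.24, exact permutation p = 0.0511). EPFR against EPFR lo gave -2.42 percentage points (SE 4.33, exact permutation p = 0.581), with 2.62 in mice 1 to 4 and -7.46 in mice 5 to 8. With background subtracted it was -6.75 (exact permutation p = 0.0375). The negative controls themselves were lower in EPFR than in EPFR lo mice (log2 difference -0.28, SE 0.10, exact permutation p = 0.00917, 0.0275 over 3 comparisons), and their part in the shares was not tested. Within mice 1 to 4 and mice 5 to 8 the difference from filtered air was 11.9 and 1.39 percentage points in EPFR, and 9.29 and 8.85 in EPFR lo. Without EPFR lo mouse 1 or 2, or filtered air mouse 6 or 8, the difference in EPFR lo was 10.0, 10.7, 10.8 and 11.3 percentage points, with exact permutation p from 0.0134 to 0.0435. These were 4 of the 16 comparisons that leave out 1 mouse, and the other 12 did not pass 0.05. The difference was lowest without EPFR lo mouse 8, at 6.92 percentage points, and the highest exact permutation p of the 16 was 0.101. Probes at background add to the total, so a share also moves with the background. Set against the 39 other miRNA above background in place of all counts, miR-451 differed by 0.04 in log2 in EPFR (SE 0.23, exact permutation p = 0.857) and miR-144 by 0.67 (SE 0.35, exact permutation p = 0.0786). In EPFR lo against filtered air these were 0.35 for miR-451 (SE 0.22, exact permutation p = 0.130) and 0.72 for miR-144 (SE 0.33, exact permutation p = 0.0443, Benjamini-Hochberg over 3 comparisons 0.118).

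The 2 members come from 1 transcript, and the number of miR-451 counts per miR-144 count still varied widely. It was 16.3 to 66.3 in EPFR mice (median 23.0), 22.7 to 58.7 in EPFR lo mice (median 29.3) and 20.8 to 96.1 in filtered air mice (median 41.1). In filtered air mice 2, 3 and 4 and EPFR lo mouse 3 the miR-144 count was at or under its mouse's background limit, and these include the highest ratio of the filtered air mice, so ratios there rest on a denominator not above background. A count ratio of 2 probes is not a ratio of molecules, since probes differ in efficiency. On log2 scale with 1 added to each count, the ratio averaged 4.81 ± 0.72 in EPFR, 5.07 ± 0.51 in EPFR lo and 5.41 ± 0.84 in filtered air (SD, n = 8 each). The difference from filtered air was -0.60 in EPFR (SE 0.39, exact permutation p = 0.143), -0.35 in EPFR lo (SE 0.35, exact permutation p = 0.328) and -0.26 for EPFR against EPFR lo (SE 0.31, exact permutation p = 0.418). None of the 3 passed the test, and in mice 1 to 4 and mice 5 to 8 the difference in EPFR was -0.57 and -0.63. After subtraction of the negative controls, which lowers small counts most, the difference in EPFR was -1.46 with an exact permutation p of 0.0396. That value rests on filtered air mouse 4, whose miR-144 count became 0 and was set to 1, and without this mouse it was -0.91 (exact permutation p = 0.0803).

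The scaled log2 counts of the pair correlated over the 24 mice with r = 0.80 (permutation p = 2e-05) and rho = 0.77 (permutation p = 5e-05). Without the 2 mice farthest from the median of miR-451, filtered air mice 1 and 3, r was 0.76. Within the groups r was 0.82 in EPFR, 0.75 in EPFR lo and 0.72 in filtered air (exact permutation p = 0.0211, 0.0216 and 0.0330, n = 8 each), and rho was 0.52, 0.71 and 0.76 in the same order (exact permutation p = 0.197, 0.0576 and 0.0368). Among mice 1 to 4 r was 0.81 and rho 0.83, and among mice 5 to 8 r was 0.70 and rho 0.43 (permutation p of rho 0.170). Most abundant miRNA moved together from mouse to mouse: the median rho of all 820 pairs of the 41 miRNA above background was 0.59. Scaled to the sum of the other miRNA above background, a choice made after seeing the data, the correlation of the pair was 0.22 (permutation p = 0.299; rho = 0.22, permutation p = 0.299). On that scale the median rho of all 820 pairs was 0.01. There 230 of the 820 pairs had a higher rho than the members, against 170 before.

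**Figure D4:**
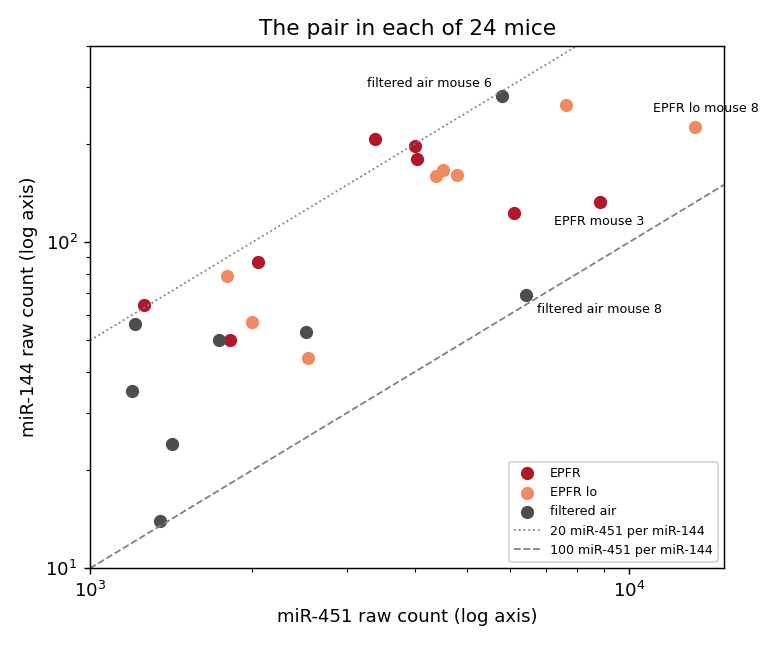
Raw count of miR-144 against raw count of miR-451 in each of the 24 mice, both axes logarithmic, with lines at 20 and 100 miR-451 counts per miR-144 count. Filtered air mice 6 and 8 have like counts of miR-451 (5822 and 6445) and very unlike counts of miR-144 (280 and 69).

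Each member ranked the mice more like several other miRNA than like its partner. The 5 miRNA whose scaled log2 counts ranked the 24 mice most like miR-144 were miR-15b (rho = 0.95), miR-15a (0.90), miR-142-3p (0.87), miR-19a (0.87) and let-7i (0.87). For miR-451 they were miR-486 (rho = 0.94), miR-25 (0.93), the joint probe of miR-106a and miR-17 (0.90), miR-19a (0.89) and miR-16 (0.88). miR-486 is another abundant red cell miRNA, miR-25 belongs to the miR-106b cluster, and miR-142-3p is a miRNA of blood cells at large and of leukocytes above all. The partner of the cluster came 14th for miR-144 and 15th for miR-451 among the 40 others, and 8th and 7th when scaled to the sum of the other miRNA above background. On that scale miR-486 stayed first for miR-451 (rho = 0.83) and miR-142-3p came first for miR-144 (rho = 0.69). These likenesses are descriptions over mice that share a library per mouse and are given without a test.

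Filtered air mice 6 and 8, and the miRNA set beside the members here, were picked after their values were seen. Mice 6 and 8, in that order, held 5822 and 6445 counts of miR-451, 804 and 900 of miR-16, 285 and 320 of miR-25, and 221 and 188 of miR-486. They held 280 and 69 counts of miR-144, 180 and 45 of miR-15a, 162 and 51 of miR-15b, 92 and 37 of let-7i, and 76 and 34 of miR-142-3p. Of the miRNA most like a member, miR-19a, which is on both lists, had 58 and 59 counts and the joint probe of miR-106a and miR-17, like miR-451, had 77 and 55. Apart from miR-144, the miRNA most like it were higher in mouse 6 with the exception of miR-19a. They were picked for their likeness to miR-144 over mice that include mouse 6, so the choice itself favors this. Mouse 6 had the highest raw count of its group for 18 of the 41 miRNA above background, and mouse 8 for 12.

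miR-16, a red cell miRNA present in most tissues, gave the only ratio, of the 5 compared, whose difference passed the adjusted threshold. On log2 scale, miR-451 over miR-16 was 1.80 to 3.20 in EPFR mice (median 2.12), 2.41 to 4.20 in EPFR lo mice (median 2.85) and 2.84 to 4.07 in filtered air mice (median 3.09). EPFR mice lay lowest, and only EPFR mouse 1, the one with the lowest counts of miR-16 in its group, exceeded the filtered air median. The ratio averaged 2.27 ± 0.46 in EPFR and 3.21 ± 0.42 in filtered air (SD, n = 8 each), a difference of -0.94 (SE 0.22, exact permutation p = 0.00109, two-sided). Adjusted over the 15 comparisons of 5 ratios in the 3 pairs of groups, p was 0.0163. The difference was -0.97 in mice 1 to 4 and -0.91 in mice 5 to 8, and leaving out any single mouse gave -1.07 to -0.82.

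EPFR lo mice, at 2.93 ± 0.57, differed from filtered air mice by -0.28 (SE 0.25, exact permutation p = 0.284). Without EPFR lo mouse 1, whose ratio of 4.20 was the highest of its group, the difference was -0.46 (exact permutation p = 0.0204). EPFR differed from EPFR lo by -0.66 (SE 0.26, exact permutation p = 0.0190, 0.142 over the 15 comparisons). miR-16 itself had a raw count of 197 to 1608 in EPFR mice (median 850.5) and 79 to 900 in filtered air mice (median 186.5), and its log2 fold change of 1.54 in EPFR (SE 0.52, edgeR adjusted p = 0.236) was larger than that of either member without passing the test. miR-144 over miR-16 differed by -0.34 in EPFR (SE 0.32, exact permutation p = 0.306).

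**Figure D5:**
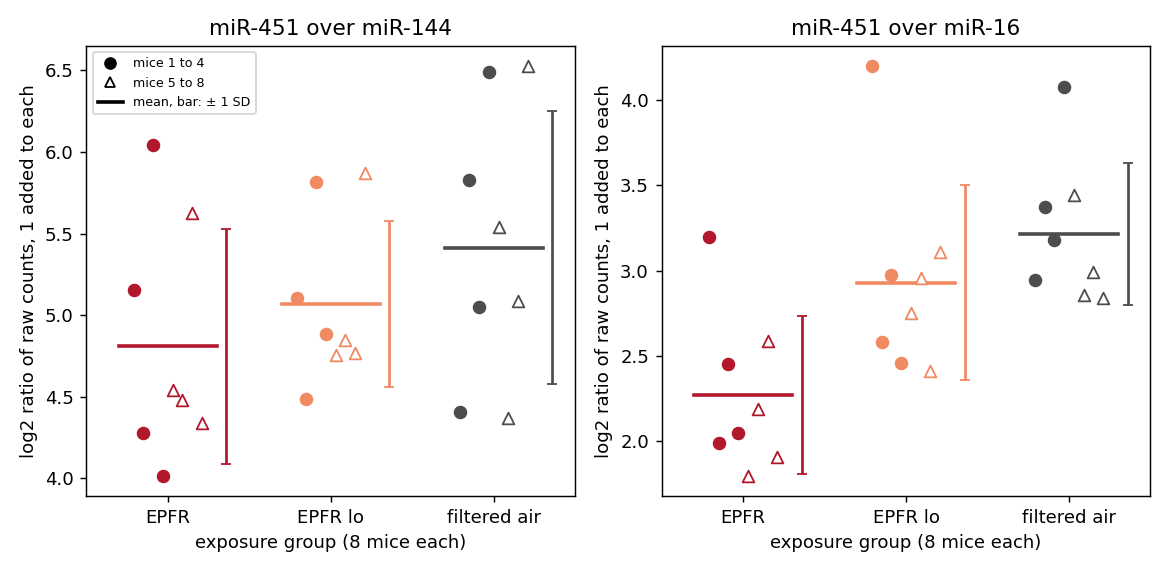
Log2 ratio of raw counts, 1 added to each, of miR-451 over miR-144 (left) and over miR-16 (right) per mouse and group, with a line at each mean and a bar of 1 SD. miR-451 over miR-16 averages 2.27 in EPFR, 2.93 in EPFR lo and 3.21 in filtered air mice.

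Against miR-23a no difference passed the test. Taken over miR-23a, miR-451 had a log2 ratio of 4.65 to 6.87 in EPFR mice (median 5.72), 4.92 to 6.26 in EPFR lo mice (median 5.67) and 4.70 to 6.67 in filtered air mice (median 5.69). miR-23a was itself at or under the background limit of its mouse in 1 of 8 EPFR mice (mouse 4, which had the highest EPFR ratio), 0 of 8 EPFR lo mice and 3 of 8 filtered air mice (mice 1, 2 and 4). The ranges lay over each other, and the differences from filtered air were -0.04 in EPFR (SE 0.34, exact permutation p = 0.911) and -0.17 in EPFR lo (SE 0.29, exact permutation p = 0.566). In EPFR an interval of 2 SE ran from -0.71 to 0.63, and the sign differed between mice 1 to 4 (0.50) and mice 5 to 8 (-0.58). In EPFR lo these were 0.29 and -0.62. For miR-144 over miR-23a the differences were 0.57 in EPFR (SE 0.48, exact permutation p = 0.257) and 0.18 in EPFR lo (SE 0.37, exact permutation p = 0.651).

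The other 10 miRNA known from red cells were described by their counts. In EPFR against filtered air, 8 of 10 had a positive log2 fold change, 0 were called by edgeR (against 0.707% of all 566 called higher) and 5 had an unadjusted p under 0.05 in that direction (against 3.89%): miR-15a, miR-15b, miR-16, miR-25 and miR-106b. Of the 5 on this list above background, 4 did so, against 39.0% of all 41 above background. Both sets were chosen by means that include the particle groups, which can favor higher values there. The median of the 10 log2 fold changes was 0.73, against -0.09 over all 566 miRNA and 0.59 over the 41 above background. In EPFR lo, 9 of 10 were positive with a median of 0.52, against 0.11 over all 566 and 0.60 over the 41 above background. There 1 of 10 was called (against 0.707%) and 2 of 10 had an unadjusted p under 0.05 in the higher direction (against 4.42%, and against 39.0% of the 41 above background, where 1 of this list's 5 did). The one called was miR-106b, of the miR-17 family (log2 fold change 1.23, SE 0.33, edgeR adjusted p = 0.0365), at or under its mouse's limit in 3 of 8 EPFR lo mice and 7 of 8 filtered air mice. In EPFR against EPFR lo, 6 of 10 were positive and 0 were called in either direction, with 0 at an unadjusted p under 0.05. Of the 10, miR-15a, miR-15b, miR-16, miR-25 and miR-486 were above background and miR-92a, miR-93, miR-106b, miR-185 and miR-363 were at or under it.

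Single miRNA on the lists of other cell types passed the test that the pair did not, where 0.707% of all miRNA were called higher in either comparison with filtered air. On the list of 6 leukocyte miRNA, miR-155 was at 1 raw count in every mouse and has no measured direction. Of the other 5, 1 was called in EPFR and 1 in EPFR lo, with 4 and 5 positive and medians of 0.61 and 0.68. It was miR-142-3p, with a log2 fold change of 1.69 in EPFR (SE 0.38, edgeR adjusted p = 0.00181) and 1.47 in EPFR lo (SE 0.38, edgeR adjusted p = 0.0306), while miR-142-5p had -0.05 in EPFR (SE 0.37). miR-142-3p was at or under its mouse's background limit in 2 of 8 EPFR mice, 2 of 8 EPFR lo mice and 7 of 8 filtered air mice, so these folds are taken against a group mostly at background. The summed scaled counts of the list were 133 to 732 in EPFR mice, 304 to 535 in EPFR lo mice and 111 to 425 in filtered air mice. Of 7 striated muscle miRNA, 1 was called in EPFR, miR-1 (log2 fold change 1.98, SE 0.36), and 0 in EPFR lo, with 4 and 5 positive and medians of 0.16 and 0.34. miR-1 was at or under its mouse's limit in 4 of 8 EPFR mice and 8 of 8 filtered air mice. Its raw counts in EPFR mice ran from 12 to 387 with a median of 29.5. Its scaled counts there averaged 83.7 ± 138 (SD, n = 8), so the fold of miR-1 leans on its highest counts. The list had sums of 71.7 to 670 in EPFR mice and up to 182 in filtered air mice. Of 4 liver miRNA, 0 were called in EPFR and 1 in EPFR lo, miR-122 (log2 fold change 1.62, SE 0.34), with 3 and 4 positive and medians of 0.17 and 0.88. miR-122, at or under its mouse's limit in 7 of 8 EPFR mice, 3 of 8 EPFR lo mice and 7 of 8 filtered air mice, was also the 1 miRNA called between the particle groups, lower in EPFR than in EPFR lo (log2 fold change -1.33, SE 0.33, edgeR adjusted p = 0.0369). Of 4 platelet and endothelium miRNA 0 were called, with medians of 0.17 in EPFR and 0.34 in EPFR lo, miR-126-3p having -0.06 in EPFR (SE 0.35) and 0.53 in EPFR lo (SE 0.35). The part of these cells in the values of the pair was not tested, and in plasma more cells releasing RNA and more RNA released per cell cannot be told apart.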

How the data were processed

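The authors deposited raw counts of each nCounter probe, as read by the instrument, and normalized values, a signal scale made in nSolver: the geometric mean over negative controls was taken off each count, which was then scaled to the positive controls and to Actb, B2m, Gapdh and Rpl19. The same steps applied to the raw counts gave all 13584 deposited normalized values of mouse miRNA within 2%. The housekeeping probes lay near background (geometric mean 9.01 to 22.7 counts, against a negative-control mean of 17.3). All 4 probes were at background in 4 mice, EPFR lo mice 1, 2 and 4 and filtered air mouse 2. Over the 24 mice the geometric mean had a median of 12.6 counts for the housekeeping probes and 15.7 for the negative controls. The scaling is thus imprecise, and not in those 4 mice alone. A deposited table of fold changes and p-values was not used.

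Raw counts were tested with edgeR 4.0.16 (R 4.3.3, quasi-likelihood F test) over all 24 mice with the positive-control and housekeeping factor, with no filter, and Benjamini-Hochberg adjustment over 566 miRNA. Single values were compared by exact permutation over all 12870 regroupings of 8 and 8 mice, correlations by 100000 permutations (scipy 1.17.1). The edgeR fit was tested on simulated data, drawn with the same spread setting for every miRNA and without batches. That setting differs from these data, so the simulation does not measure the error of the calls here. As alternatives, limma 3.58.1 and DESeq2 1.42.0 were used. No 2 mice of a group agreed within sampling noise (lowest chi-square per degree of freedom 1.95). Named were the members, the lists of cell type miRNA, miR-16, miR-23a and the 5 miRNA above background most like each member by Spearman's rho. The members and lists were chosen with earlier results of these data known. Intervals of shares cover counting error only. No source used here assigns mice to batches, so mice 1 to 4 and 5 to 8 were compared. Alternatives were other scalings, tools, sets of mice and covariates.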

Additional observations from a re-analysis of the deposited data

Results flagged for a closer look

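Among 27 sets of 8 mice, 9 measures of the pair in 3 groups, 3 had an extreme mouse by Dixon's test at the 95% level, which by chance marks about 1 set in 20. Filtered air mouse 6 stood apart in miR-144, with a raw count of 280 where the next highest of its group was 69, and a scaled count of 266. On log2 scale its scaled count was not past the limit of the test (gap to the next mouse 0.497 of the group's range). EPFR lo mouse 1 stood apart in miR-451 over miR-16 (log2), at 4.20 where the next was 3.11.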

How the results depend on the processing

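The sum of the other miRNA above background as a scale, the alternatives for miR-451 over miR-16, and leaving out the mouse with a subtracted count of 0 were chosen after seeing the data. Where a value moved, the cause was not tested.

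miR-144 in EPFR against filtered air passed the threshold with DESeq2's own size factors (1.10, adjusted p = 0.0417) and with mice 1 to 4 and 5 to 8 as a block (1.37). Scaling by the ligation controls gave -0.17 for miR-144 and -0.86 for miR-451 in EPFR and -0.062 for miR-451 in EPFR lo, where the median of all miRNA was -1.72 in EPFR and -0.99 in EPFR lo. On the deposited normalized values limma gave 2.08 and 2.11 for miR-144, neither called. For EPFR against EPFR lo, miR-144 turned to -0.026 with positive controls alone, -0.45 with ligation controls, -0.0076 with the other miRNA above background, -0.037 with limma and -0.18 with ligation as a covariate, and miR-451 to 0.057 in mice 1 to 4.

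Not every same-numbered pair of mice had a correlation of deviations over 0.1 (3, 4 and 6 of 8 pairs, with medians of 0.04, 0.11 and 0.26, for EPFR, EPFR lo and EPFR against EPFR lo), and 1, 2 and 2 mice correlated best with their own number, so numbers were not read as pairs. With the replicate number as a block, miR-144 was 1.36 in EPFR lo (edgeR adjusted p = 0.0233), 1.32 in EPFR and -0.039 for EPFR against EPFR lo, the called miRNA came to 2 in EPFR and 7 in EPFR lo, and the share of miR-451 in EPFR lo differed by 9.07 points (exact p = 0.00781).

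The 4 miRNA called in EPFR became 7 when scaled by the other miRNA counts, 9 by the top 100, 537 by ligation controls, 326 by the other miRNA above background, 1 and 18 with DESeq2 (housekeeping and own factors), 0 with limma, 1 in mice 1 to 4, 7 with the division as a block and 1 with the ligation covariate. Of the 537, all were lower in EPFR, and of the 326, 322 were lower. The 4 called in EPFR lo became 2 with positive controls alone and, in the same order of settings, 7, 13, 30, 43, 0, 13, 0, 1, 7 and 1. They became 0 with only miRNA above background, without the mice with housekeeping at background, and in mice 5 to 8. The 1 called for EPFR against EPFR lo became 2 with ligation controls, 3 with the other miRNA above background, and 0 with limma, without the mice with housekeeping at background, and in either set of 4.

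With background subtracted, the ratio of miR-451 over miR-144 differed by -1.46 in EPFR (-0.91, exact p = 0.0803, without filtered air mouse 4, whose miR-144 count became 0) and the share of miR-451 by -6.75 points for EPFR against EPFR lo (exact p = 0.0375). That share difference was 2.62 in mice 1 to 4. In EPFR lo against filtered air the share differed by 11.7 without the mice with housekeeping at background (exact p = 0.0455) and by 9.29 in mice 1 to 4 (exact p = 0.0286). miR-451 over miR-16 missed the threshold in mice 1 to 4 (-0.97, exact p = 0.0857; -0.63 for EPFR against EPFR lo) and in mice 5 to 8 for EPFR against EPFR lo (-0.69). The correlation of the pair was 0.22 with the other miRNA above background.

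Leaving out 1 mouse at a time gave, for EPFR, EPFR lo and EPFR against EPFR lo in turn, 0.95 to 1.92, 0.94 to 1.85 and -0.16 to 0.24 for miR-144, and 0.52 to 1.07, 0.68 to 1.14 and -0.31 to 0.068 for miR-451. The ratio of the pair ranged over -0.78 to -0.44, -0.49 to -0.19 and -0.43 to -0.14, miR-451 over miR-16 over -1.07 to -0.82, -0.46 to -0.16 and -0.79 to -0.48, and the share of miR-451 over 4.69 to 8.87, 6.92 to 11.3 and -4.39 to -0.26 points. The correlation was 0.78 to 0.84. Without EPFR lo mouse 1, miR-451 over miR-16 in EPFR lo passed the threshold (-0.46, exact p = 0.0204). Called miRNA numbered 2 to 9 in EPFR (9 without filtered air mouse 6, 7 without filtered air mouse 8, 2 without EPFR mouse 8). They numbered 1 to 10 in EPFR lo, with 10 without filtered air mouse 6 and 1 without EPFR lo mouse 2, 4, 5, 6 or 8 or filtered air mouse 1, 3, 4, 5 or 7. For EPFR against EPFR lo they numbered 0 to 1, with 0 without EPFR mouse 1, 2, 4, 5, 6 or 8, EPFR lo mouse 1, 2, 4 or 8, or filtered air mouse 1 or 2. The depth of 8418 to 30483 counts leaves miR-144 near background in the lowest mice.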
